A study of Mus musculus with 24 samples.

Results

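The Zfp genes are mouse genes whose symbol is Zfp followed by a number, and nearly all of them encode zinc finger proteins. They were taken from 24 expression arrays of cultured mouse neurons by symbol and by level. A gene was kept when its brightest single-symbol probe set lay above the array's own median in at least 12 of the 24 arrays, and 284 of the 336 genes with such a symbol passed, out of 18194 genes named on the arrays. Of the 284, 211 were above the median in all 24 arrays and 73 in fewer. Among the Zfp genes left out, 25 were above it in 1 to 11 arrays and 27 in none. Zfp324, Zfp691 and Zfp941 stood just inside the limit, each above the median in 13 arrays, and Zfp418, Zfp433, Zfp619 and Zfp709 stood just outside it with 11. The limit treats directions unequally, since a gene bright at 0 and 1 h counts 16 arrays and a gene bright at 6 h counts 8. The family was also taken up with its falls after depolarization already known, so the counts of falling members below describe the family and are set beside the same counts over all genes.

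The study compared Npas4 knockout (KO) neurons with wild-type (WT) littermate neurons of C57Bl/6 mice. The neurons came from the medial ganglionic eminence (MGE), an embryonic source of cortical interneurons, or from the cortex (CTX). Npas4 is a transcription factor that neurons induce on depolarization. Neurons were taken at embryonic day 14, cultured for 10 days, silenced overnight with the sodium channel blocker TTX and the NMDA receptor blocker AP-5, and depolarized with 55 mM KCl for 0, 1 or 6 h. The 12 groups were MGE KO, MGE WT, CTX KO and CTX WT at each of these times, each with 2 arrays, so the 0 h cultures were silenced too. The labels call the arrays of a group repeats and do not say that they came from separate cultures, so the p-values measure the spread between arrays, which may be technical.

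Zinc finger proteins of the Cys2His2 class bind DNA through tandem fingers, and most numbered Zfp genes belong to this class. Many carry a KRAB domain, which recruits the co-repressor Trim28 and, through it, histone H3 lysine 9 methylation, and many lie in clusters of related neighbours that arose by duplication. Other numbered Zfp genes encode unrelated proteins, such as the CCCH proteins that bind AU-rich elements of mRNA.

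The members spanned a wide range of levels. Their mean log2 intensity over the 24 arrays had a median of 9.26, with quartiles of 8.43 and 10.56. The brightest members were Zfp251 at 13.02 and Zfp622, a factor of ribosomal subunit assembly, at 12.99, and the dimmest was Zfp324 at 6.79. A level on these arrays depends on the probe set as well as on the RNA, so levels are not compared further between genes. Between the highest and the lowest of the 12 group means, the median member moved by 1.53 on the log2 scale. That range exceeded 2-fold for 217 members and 4-fold for 88. Zfp655 moved least, by 0.23, and Zfp493 most, by 4.40.

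Npas4, the deleted gene, stood at 6.80 to 7.35 on the log2 scale in KO neurons at 1 h, against 11.2 to 12.04 in WT neurons. Its signal also rose with KCl in KO neurons, from 5.35 to 5.82 at 0 h. At 6 h it was 7.07 and 6.80 in MGE KO and 7.76 and 7.82 in CTX KO. The WT levels at 6 h were 9.32 and 8.59 in MGE and 11.73 and 11.84 in CTX. The source of the signal in KO neurons was not tested. Of 6 excitatory neuron markers, all were above the array median on every CTX array, and 5 were below it on every MGE array. The other was Slc17a6, which encodes a vesicular glutamate transporter and read 7.19 to 8.53 on the 6 MGE arrays of replicate 1, above the median, and at most 3.92 on the 6 of replicate 2. MGE WT at 0 h and CTX WT at 6 h held arrays that stood apart: 26 and 67 members differed by over 2-fold between the arrays of these groups. CTX KO at 6 h also had 26 such members. In bulk RNA, fewer cells of a type and less RNA per cell cannot be told apart.

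**Figure D1:**
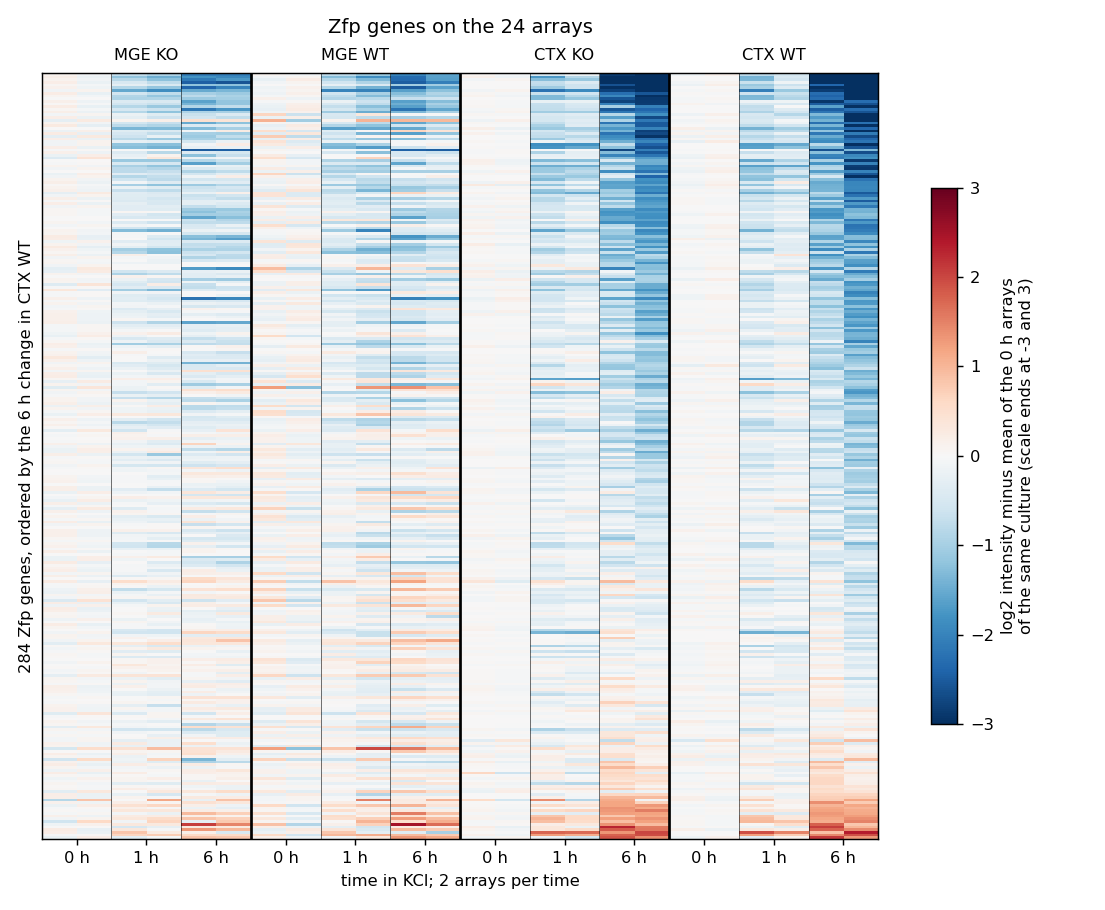
Log2 intensity of the 284 Zfp genes (rows, ordered by their change in CTX WT cultures at 6 h) on the 24 arrays (columns), minus the mean of the same culture's 0 h arrays, with the colour scale ending at -3 and 3. The 6 h columns of the CTX cultures hold most of the strong falls, and the 1 h columns are paler.

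After 6 h of depolarization, more members fell than rose in each of the 4 cultures. In CTX WT neurons 159 members fell and 18 rose (limma, adjusted p under 0.05), or 56.0% and 6.34% of the family. Among all 12378 genes tested, 24.8% fell and 10.5% rose in these neurons. In CTX KO neurons 132 members fell and 22 rose, beside 24.9% and 11.3% of all genes tested. In MGE WT neurons 64 fell and 16 rose, beside 15.7% and 9.53%. In MGE KO neurons 52 fell and 6 rose, beside 12.3% and 4.84%.

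The median log2 change of the 284 members was -0.74 in CTX WT, -0.58 in CTX KO, -0.19 in MGE WT and -0.18 in MGE KO neurons. Over the 11356 genes that pass the same level limit, the medians were -0.12 in CTX WT, -0.12 in CTX KO, -0.04 in MGE WT and -0.07 in MGE KO neurons, and 25.7% fell and 10.1% rose in CTX WT neurons. Falls of over 2-fold were called for 32 members (11.3%) in MGE WT and 104 (36.6%) in CTX WT neurons, beside 5.24% and 11.1% of all genes tested. Of the 211 members above the array median in all 24 arrays, 103 (48.8%) fell and 17 (8.06%) rose in CTX WT neurons. Of the 73 members above it in 12 to 23 arrays, 56 (76.7%) fell and 1 (1.37%) rose. The level limit can admit such members through their 0 and 1 h arrays, which raises the share that fell. The share over all genes above the median in all 24 arrays was not counted. The CTX arrays at 6 h were uneven. The median member stood 0.49 and 0.96 below the CTX 0 h level in the 2 CTX WT arrays, and 0.43 and 0.71 below it in the 2 CTX KO arrays. Other measures moved on the same arrays. Of 8 interneuron markers, 2 rose in CTX WT (median change 0.44) and 3 in CTX KO (0.58), and 0 fell. The summed intensity of these markers was 13600 to 19000 in CTX WT at 6 h, against 7990 to 12100 at 0 h. They did not move together. In CTX WT, Sst stood at 12.83 and 12.68 at 6 h, against 11.98 and 10.85 at 0 h. Lhx6 stood at 9.42 and 8.67, against 10.0 and 9.54. Of 5 progenitor markers 1 rose in CTX WT and 2 in CTX KO, and 0 fell. In CTX WT, Sox2 stood at 10.43 and 9.68 at 6 h, against 8.68 and 8.25 at 0 h. Nes stood at 7.90 and 7.92, against 7.92 and 7.51, and Mki67 at 7.27 and 7.14, against 7.59 and 6.16. The log2 ratio of 3' to 5' control probe sets, a measure of RNA integrity, was 0.54 to 0.58 for Gapdh in CTX WT at 6 h, against 0.62 to 0.63 at 0 h, and 0.45 to 0.53 for actin, against 0.58 to 0.59. The part of these measures in the falls was not tested.

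The counts of the MGE cultures depended on single arrays. The 80 called in MGE WT became 32 without replicate 1 at 6 h, 40 without replicate 2 at 0 h and 53 without replicate 2 at 6 h. The 58 called in MGE KO became 32 without replicate 1 at 0 h, 31 without replicate 1 at 6 h and 37 without replicate 2 at 6 h. In CTX WT the count stayed between 131 and 194 and in CTX KO between 110 and 153 as each array was left out in turn.

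**Figure D2:**
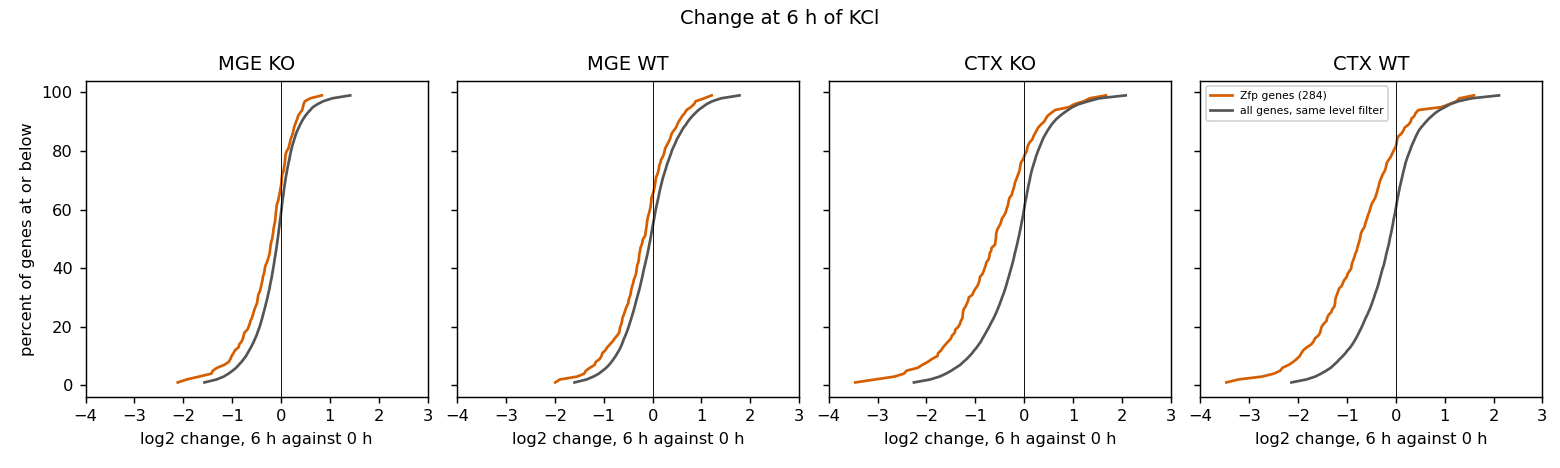
Percent of genes at or below each log2 change from 0 h to 6 h, for the 284 Zfp genes and for all genes that pass the same level limit, in 1 panel per culture. The Zfp curve lies left of the other at its middle in all 4 panels, with a wider gap in the CTX panels (medians -0.74 and -0.12 in CTX WT).

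Zfp759 had the lowest fitted change in CTX WT neurons at 6 h. Its 1 h arrays lay between its 0 h and 6 h arrays, without a 1 h call in CTX WT or MGE WT neurons. Its log2 intensity in CTX WT neurons was 8.85 and 9.11 at 0 h, 8.20 and 8.42 after 1 h, and finally 5.31 and 4.91 after 6 h. In MGE WT neurons it was 9.38 and 9.21 at 0 h, 8.54 and 8.19 after 1 h, and finally 7.30 and 7.70 after 6 h. The 6 h arrays lay below all 0 h and 1 h arrays of the same culture. In CTX WT neurons they also lay well below the array medians of 6.84 to 6.92, so the fold given next rests on a dim signal. Zfp759 changed by -3.87 (SE 0.33, limma adjusted p = 1.1e-06) in CTX WT neurons at 6 h, which is 14.6-fold lower, and by -1.79 in MGE WT neurons.

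Zfp493 showed the same order of times in all 4 cultures. It stood at 8.62 and 8.78 at 0 h, 8.04 and 8.56 after 1 h, and finally 5.29 and 5.24 after 6 h in CTX WT neurons. In CTX KO neurons it stood at 8.75 and 8.75 at 0 h, 8.04 and 8.33 after 1 h, and finally 5.69 and 5.28 after 6 h. The 6 h arrays of the CTX cultures lay well below the array median, and no group at 6 h overlapped its 0 h group. The 6 h change of Zfp493 was -3.43 (SE 0.21, limma adjusted p = 8.2e-08) in CTX WT, -3.27 in CTX KO, -2.27 in MGE WT and -2.52 in MGE KO neurons.

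The other strong falls in CTX WT neurons were those of Zfp354b (-3.72, SE 0.49), Zfp94 (-3.65, SE 0.27), Zfp60 (-3.35, SE 0.41), Zfp213 (-3.26, SE 0.31), Zfp113 (-3.21, SE 0.32), Zfp14 (-2.76) and Zfp647 (-2.75). Zfp354b fell unevenly, with 5.95 and 4.47 at 6 h in CTX WT neurons, against 8.95 and 8.93 at 0 h. Zfp94 fell evenly, with 5.92 and 5.78 at 6 h, against 9.50 and 9.51 at 0 h. These 6 h values of Zfp354b and Zfp94 lay below the array median too. Zfp689 read -2.72 with its brightest probe set, but its other probe sets read -0.95 and -0.00, so its fall depends on the probe set. Of the 159 members that fell in CTX WT neurons, 55 had another bright probe set. Of these 81 other probe sets, 69 pointed down, and for 45 of the 55 members all did. The others of the 159 have no such comparison, and the share was not counted over other genes.

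**Figure D3:**
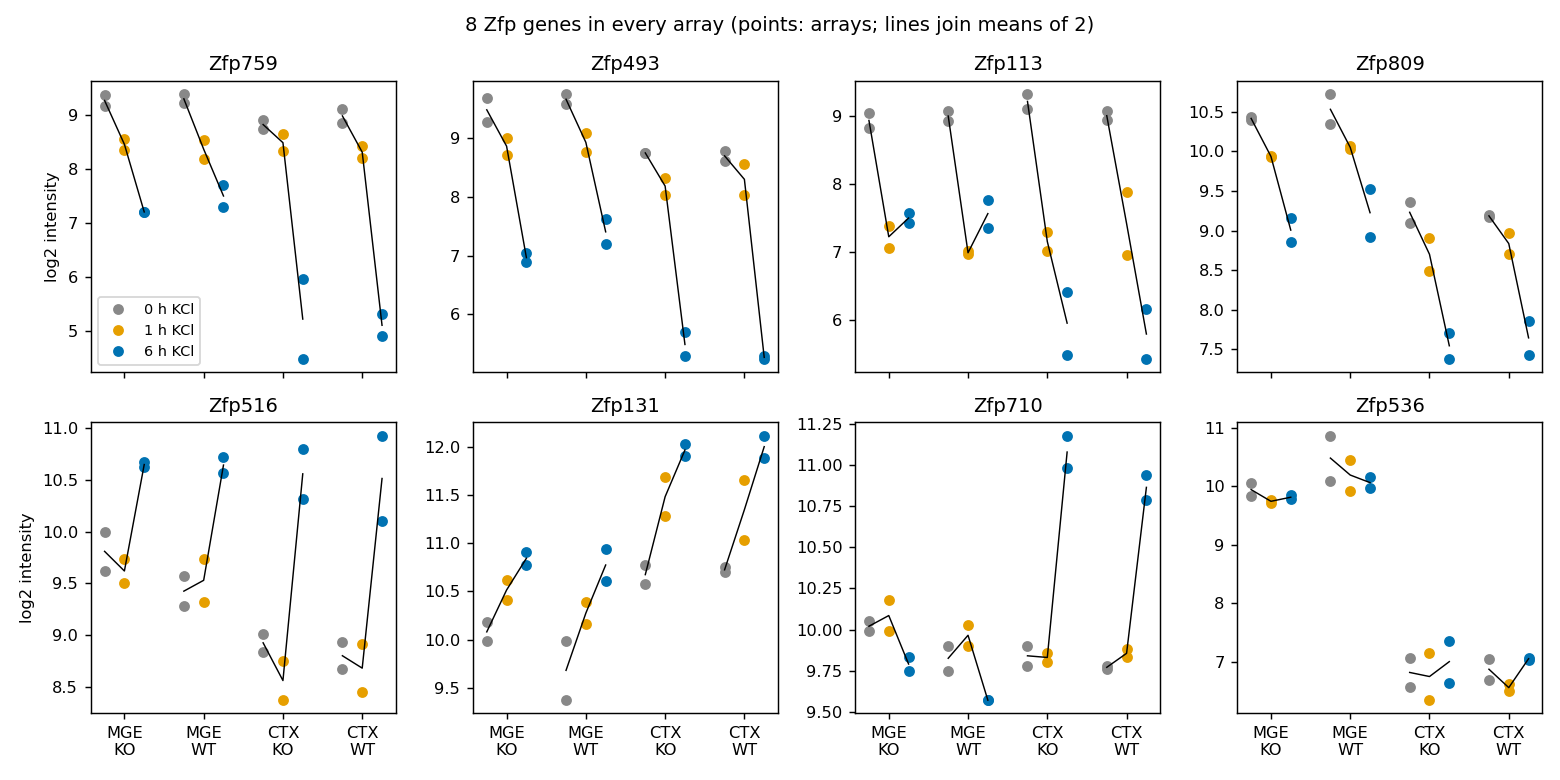
Log2 intensity of Zfp759, Zfp493, Zfp113, Zfp809, Zfp516, Zfp131, Zfp710 and Zfp536 on each array, by culture and hours of KCl. Zfp759 and Zfp493 are lowest at 6 h in every culture, Zfp710 is higher at 6 h in the CTX cultures, and Zfp536 is higher in MGE than in CTX cultures at all times.

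Falls called in all 4 cultures numbered 38 (13.4% of the members) and rises 4 (1.41%), beside 7.24% and 2.2% of all genes tested. The 38 included Zfp759, Zfp493, Zfp94, Zfp354b, Zfp213, Zfp113, Zfp239, Zfp661 and Zfp809, and 79 members (27.8%) were called at 6 h in no culture, beside 49% of all genes tested. Between genotypes, 127 members fell in both CTX cultures, 96.2% of those in KO and 79.9% of those in WT. They were 44.7% of the members, beside 21.9% of all genes tested. Between origins, 56 fell in both WT cultures, 87.5% of those in MGE and 35.2% of those in CTX. They were 19.7% of the members, beside 9.9% of all genes tested. Across the 284 members, the 6 h changes had a Pearson correlation of 0.96 between CTX KO and CTX WT, 0.90 between MGE KO and MGE WT, and 0.62 between MGE WT and CTX WT. Those correlations are across genes measured on the same arrays and describe these arrays only.

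Zfp85os, a noncoding transcript annotated beside Zfp85, fell late. Its level was 8.30 and 8.12 at 0 h, 8.14 and 8.11 after 1 h, and finally 5.79 and 5.73 after 6 h in MGE WT neurons. The 1 h arrays lay at the 0 h level and both 6 h arrays lay far below. The fall of Zfp85os at 6 h was the steepest of the family in MGE WT neurons, at -2.45 (SE 0.29, limma adjusted p = 6e-05), and read -2.48 in MGE KO neurons.

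The members that rose were few. Zfp131, Zfp335, Zfp516 and Zfp667 were called higher at 6 h in all 4 cultures. In MGE KO neurons the calls of Zfp131 (limma adjusted p of 0.063 to 0.19), Zfp516 (0.056 to 0.28) and Zfp667 (0.086 to 0.22) were lost without any one of the 4 arrays, and that of Zfp335 without 2 of them. The MGE WT calls of Zfp131 and Zfp667 were lost without replicate 1 at 6 h or replicate 2 at 0 h. Zfp516, which activates the Ucp1 gene in mouse brown fat, stood at 10.93 and 10.10 at 6 h in CTX WT neurons, against 8.67 and 8.93 at 0 h. In MGE WT neurons it stood at 10.72 and 10.57 at 6 h, against 9.57 and 9.28 at 0 h. No 6 h array overlapped the 0 h arrays of its culture. Zfp516 rose by 1.71 (SE 0.26, limma adjusted p = 0.00016) in CTX WT, 1.63 in CTX KO, 1.22 in MGE WT and 0.84 in MGE KO neurons.

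Zfp335, a component of a histone H3 lysine 4 methyltransferase complex whose human counterpart is linked to microcephaly, stood at 9.97 and 9.62 at 6 h in CTX WT neurons, against 8.38 and 8.02 at 0 h. It rose by 1.59 (SE 0.27, limma adjusted p = 0.0004) there and by 0.86 in MGE WT neurons, where the call was lost without replicate 1 at 0 h (0.58, adjusted p = 0.16) and without either array at 6 h. Zfp131, a BTB zinc finger protein, was higher on both CTX WT arrays at 1 h, but its 1 h change was called in no culture. Its level in CTX WT neurons was 10.75 and 10.70 at 0 h, 11.66 and 11.04 after 1 h, and finally 11.89 and 12.12 after 6 h. Every 1 h and 6 h array lay above the 0 h arrays, and the 6 h change of Zfp131 was 1.28 (SE 0.22, limma adjusted p = 0.00046).

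Among the other members of the 18 that rose in CTX WT neurons at 6 h, the largest changes were those of Zfp948 (1.68, SE 0.27), Zfp184 (1.62, SE 0.44), Zfp945 (1.54, SE 0.30), Zfp36l2 (1.30, SE 0.41), Zfp385b (1.30, SE 0.45) and Zfp248 (1.26, SE 0.18). The change of Zfp385b was 2.10 in MGE WT and 1.78 in MGE KO neurons, and 1.14 without a call in CTX KO neurons. Without replicate 2 of MGE WT at 0 h its MGE WT change was 1.22 (limma adjusted p = 0.068), and without replicate 1 of CTX WT at 6 h its CTX WT change was 0.82 (adjusted p = 0.28). Zfp184 read 0.87 (limma adjusted p = 0.15) without replicate 2 of CTX WT at 6 h. Zfp945 has other probe sets that read 0.28 and -1.53, and the median of its probe sets gave 0.54 (limma adjusted p = 0.072). Zfp36l2 belongs with Zfp36 to the CCCH proteins that speed mRNA decay. Zfp36 was above the array median in 4 arrays and was therefore no member, and it rose by 1.14 (limma adjusted p = 0.023) in CTX WT neurons.

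Members with known roles were described from lists chosen by function. Zfp809, which silences retroviruses in mouse embryonic stem cells, stood at 7.43 and 7.86 at 6 h in CTX WT neurons, against 9.17 and 9.20 at 0 h. Its MGE WT levels were 8.92 and 9.53 at 6 h, against 10.34 and 10.72 at 0 h, with no overlap in either culture. Zfp809 fell by 1.54 in CTX WT and by 1.30 in MGE WT neurons at 6 h. Zfp568, which represses a placental transcript of Igf2, fell by 1.25 (limma adjusted p = 0.017) in CTX WT neurons, and Zfp57, which maintains imprints, fell by 0.55 in MGE WT neurons. Of the 4 tested genes of imprinting and retroelement control, 2 fell in CTX WT and none rose. Over all genes tested, 24.8% fell and 10.5% rose there.

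Of 10 tested genes of neural development and disease, 2 fell and 1 rose in CTX WT neurons at 6 h. Over all genes tested, 24.8% fell and 10.5% rose there. Zfp385a, which carries Itpr1 mRNA to dendrites, fell by 1.18 (limma adjusted p = 0.00029), and Zfp711, whose human counterpart is linked to X-linked intellectual disability, rose by 1.08. Of 11 broadly expressed regulators, 2 fell and 2 rose in CTX WT neurons, beside the same 24.8% and 10.5% of all genes tested. The SUMO ligase Zfp451 changed by -0.79 and Zfp148, which binds GC boxes, by -0.67. The median of the probe sets of Zfp148 gave -0.48 (limma adjusted p = 0.12) in CTX WT and -0.23 (adjusted p = 0.49) in CTX KO neurons.

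The genes that KRAB proteins work through were described from a list of cofactors. Of 19 tested cofactors, 5 fell and 1 rose in CTX WT neurons at 6 h, with a median change of -0.21, beside 24.8% and 10.5% of all genes tested. The same count in MGE WT neurons was 2 fallen and 0 risen, beside 15.7% and 9.53%. Trim28 itself changed by 0.11 (limma adjusted p = 0.5) in CTX WT and by -0.26 (adjusted p = 0.11) in MGE WT neurons, and Mphosph8, of the silencing complex HUSH, rose by 0.45 in CTX WT neurons. Setdb1, the histone H3 lysine 9 methyltransferase of this pathway, changed by -0.86 in CTX WT neurons, and its partner Atf7ip by -1.22. Zinc finger genes outside the Zfp names were counted in the same way. Of 66 tested genes of the Zbtb, Zkscan, Zscan and related families, 27 fell and 1 rose in CTX WT neurons, with a median of -0.57, beside 24.8% and 10.5% of all genes tested. Of the same 66, 14 fell and 3 rose in MGE WT neurons, beside 15.7% and 9.53%.

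At 1 h few members were called. In CTX KO neurons 15 fell and 1 rose, and 0.428% and 0.671% of all genes tested did so. In CTX WT neurons 7 fell and none rose, beside 0.242% and 0.622%. In both MGE cultures 4 fell and none rose, beside 0.121% and 0.323% in MGE KO and 0.186% and 0.388% in MGE WT. The 4 were Zfp108, Zfp113, Zfp691 and Zfp974 in both, and the 7 of CTX WT were Zfp108, Zfp113, Zfp280b, Zfp287, Zfp689, Zfp691 and Zfp748. All 4 calls of each MGE culture came from the 73 members that were not above the median on every array, and of the 211 that were, 0 were called in the MGE cultures, 8 fell and 1 rose in CTX KO, and 3 fell in CTX WT. The calls in the family at 1 h were nearly all falls, and over all genes tested more rose than fell in each culture.

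Among called members, Zfp113 had the largest fall at 1 h in all 4 cultures. Its MGE WT levels were 8.92 and 9.08 at 0 h, 7.01 and 6.97 after 1 h, and finally 7.36 and 7.77 after 6 h. In CTX WT neurons they were 8.94 and 9.07 at 0 h, 6.95 and 7.89 after 1 h, and finally 6.16 and 5.43 after 6 h. In MGE neurons the 6 h arrays lay slightly above the 1 h arrays, and in CTX neurons they lay below them. The CTX WT arrays at 6 h also lay below the array median. The 1 h change of Zfp113 was -2.01 (SE 0.32, limma adjusted p = 0.0064) in MGE WT and -1.58 (adjusted p = 0.028) in CTX WT neurons.

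Zfp280b fell at 1 h in the CTX cultures. It stood at 9.43 and 9.73 at 0 h, 7.93 and 8.25 after 1 h, and finally 9.13 and 8.22 after 6 h in CTX WT neurons. In MGE WT neurons the values were 9.43 and 9.17 at 0 h, 9.59 and 9.62 after 1 h, and finally 9.50 and 9.66 after 6 h. Both 1 h CTX WT arrays lay below the 0 h ones and below every MGE WT array, and 1 of the CTX WT arrays at 6 h lay near the 0 h level. Its 1 h change was -1.49 (SE 0.22, limma adjusted p = 0.003) in CTX WT and -1.61 in CTX KO neurons, and the difference between origins at 1 h was not tested. The 1 h counts depended on single arrays: without replicate 1 of MGE WT at 0 h the MGE WT count was 46 (30 fell, 16 rose), and without replicate 2 of MGE WT at 1 h it was 1. The CTX WT count became 1 without either 0 h array and 0 without replicate 1 of the 1 h group. The CTX KO count became 3 without replicate 1 and 2 without replicate 2 of the 0 h group, and 1 without replicate 1 and 4 without replicate 2 of the 1 h group. The MGE KO count became 1 without replicate 2 of the 0 h group and 0 without any of the other 3 arrays.

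Many members are neighbours in the genome. With at most 3 other protein-coding genes allowed between neighbours, 14 runs of at least 4 members held 97 of the 284. In CTX WT neurons at 6 h, 71 of the 97 fell and 4 rose, with a median of -1.07. Of the 187 others, 88 fell and 14 rose, with a median of -0.56. Over all genes tested, 24.8% fell and 10.5% rose in these neurons. In MGE WT neurons 31 of the 97 and 33 of the 187 fell, beside 15.7% of all genes tested. The run Zfp874a to Zfp493 had 7 of 8 members falling in CTX WT neurons, and Zfp607b to Zfp850 had 5 of 5. The run Zfp871 to Zfp563 had 6 of 8 falling in CTX WT neurons (median -1.40) and 0 of 8 in MGE WT neurons (median -0.04). The run of 15 from Zfp51 to Zfp40 held 9 that fell and 2 that rose, Zfp948 and Zfp945. Related neighbours can share probe sequence, and 248 of the 284 probe sets carry the suffix for a unique target.

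**Figure D4:**
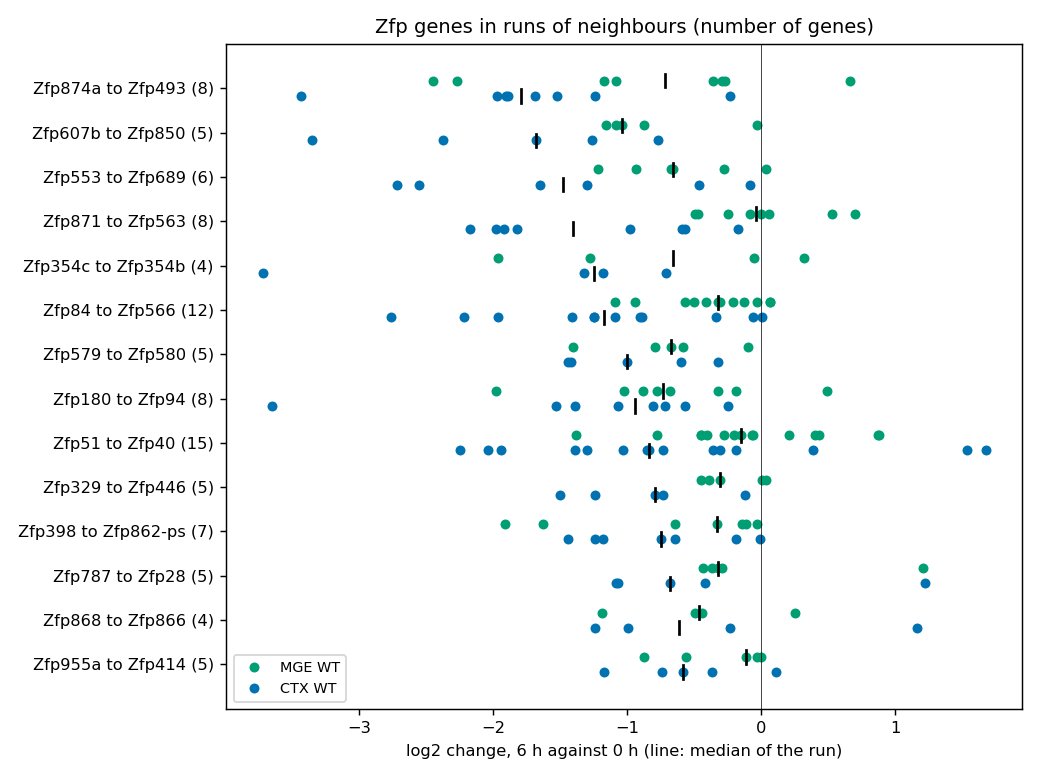
Log2 change at 6 h of each member in the 14 runs of neighbouring Zfp genes, with MGE WT in green, CTX WT in blue and a line at each median. The blue median lies below the green one in all 14 runs, and Zfp871 to Zfp563 shows medians of -0.04 in MGE WT and -1.40 in CTX WT.

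Promoters of the members were read from RefSeq (GRCm38.p6) as the 250 bases before to 50 after the gene's start, and 228 members had one. A motif of 9 letters, ACTACANTT, was chosen after the sequences had been seen, and was searched on both strands. It was present in 32 of the 228 members, against 272 of 9991 or 2.72% of the tested genes' promoters, and 1.68% of all 27025 promoters of the table. It was present in 25 of 85 promoters within the runs (29.4%) and 7 of 143 outside them (4.9%). In the other zinc finger families it was present in 1 of 53 (1.89%). By the 6 h response in CTX WT neurons, 20 of 133 falling members (15.0%), 1 of 14 rising members (7.14%) and 11 of 81 members without a call (13.6%) held it. The cyclic AMP response element TGACGTCA was in 5 of the members' promoters (2.19%), against 3.34% of the tested genes'. A match of letters is a description of the window and not a site.

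The sequences below show the motif in 5 members that fell strongly in CTX WT neurons and in Zfp189, the member with the motif that rose. All were picked from members holding the motif. Zfp493 (-3.43), Zfp213 (-3.26) and Zfp113 (-3.21), which fell more than Zfp14 (-2.76), were not among the members in which it was found. The sequences run 5′ to 3′ on the gene's strand, with the motif match in capitals. The promoter windows shown are chr13:67127978-67128277 (plus strand) for Zfp759, chr11:50931586-50931885 (minus strand) for Zfp354b and chr7:27731159-27731458 (plus strand) for Zfp60. The others are chr7:30051347-30051646 (minus strand) for Zfp14, chr4:49520926-49521225 (plus strand) for Zfp189 and chr7:24316617-24316916 (minus strand) for Zfp94. Counted on the gene's strand from the start, the match begins at position -49 in Zfp759, -58 in Zfp354b, -65 in Zfp60, -14 in Zfp14, -19 in Zfp189 and -155 in Zfp94. It reads in the opposite direction in Zfp759, Zfp189 and Zfp94. Zfp189, linked to Creb in mouse prefrontal cortex, changed by 0.40 (limma adjusted p = 0.043) in CTX WT neurons at 6 h, and the call was lost in several alternatives.
Zfp759: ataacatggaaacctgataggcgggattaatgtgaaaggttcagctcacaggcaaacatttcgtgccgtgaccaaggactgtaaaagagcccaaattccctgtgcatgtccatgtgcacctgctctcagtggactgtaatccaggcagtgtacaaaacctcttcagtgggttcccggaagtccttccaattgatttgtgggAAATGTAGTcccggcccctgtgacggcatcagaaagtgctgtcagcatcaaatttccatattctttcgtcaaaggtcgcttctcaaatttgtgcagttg
Zfp354b: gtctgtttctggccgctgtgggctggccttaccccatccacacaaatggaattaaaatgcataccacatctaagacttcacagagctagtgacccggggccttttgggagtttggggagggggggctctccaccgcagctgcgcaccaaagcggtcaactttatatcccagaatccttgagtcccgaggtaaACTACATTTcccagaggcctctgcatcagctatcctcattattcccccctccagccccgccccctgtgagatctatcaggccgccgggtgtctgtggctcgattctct
Zfp60: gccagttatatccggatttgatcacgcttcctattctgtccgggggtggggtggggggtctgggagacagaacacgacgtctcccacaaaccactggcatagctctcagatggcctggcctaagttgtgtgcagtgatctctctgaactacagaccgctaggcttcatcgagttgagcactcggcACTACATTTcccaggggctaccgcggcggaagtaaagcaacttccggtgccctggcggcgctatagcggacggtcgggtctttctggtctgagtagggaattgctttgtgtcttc
Zfp14: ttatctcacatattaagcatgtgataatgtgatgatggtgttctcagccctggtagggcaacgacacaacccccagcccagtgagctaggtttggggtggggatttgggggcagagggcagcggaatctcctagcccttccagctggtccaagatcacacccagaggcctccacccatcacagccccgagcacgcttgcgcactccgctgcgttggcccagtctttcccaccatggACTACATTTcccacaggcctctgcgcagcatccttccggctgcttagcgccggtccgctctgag
Zfp189: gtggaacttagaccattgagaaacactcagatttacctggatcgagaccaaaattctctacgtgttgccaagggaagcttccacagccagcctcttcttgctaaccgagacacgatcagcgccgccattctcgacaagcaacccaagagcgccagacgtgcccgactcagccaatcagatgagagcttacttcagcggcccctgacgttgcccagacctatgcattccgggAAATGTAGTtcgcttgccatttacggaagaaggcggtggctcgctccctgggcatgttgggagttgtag
Zfp94: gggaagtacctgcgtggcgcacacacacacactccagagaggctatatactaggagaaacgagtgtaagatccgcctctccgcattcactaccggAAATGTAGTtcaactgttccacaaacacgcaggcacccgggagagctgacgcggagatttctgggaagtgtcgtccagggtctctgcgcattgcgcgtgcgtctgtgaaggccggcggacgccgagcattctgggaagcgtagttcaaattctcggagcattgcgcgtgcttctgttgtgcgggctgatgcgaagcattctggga

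At rest, MGE and CTX cultures differed in many members. Markers of other cells differed as well in WT cultures at 0 h. Of 5 progenitor markers, 2 were higher and 1 lower in MGE, with a median difference of 1.6. Of 4 tested microglia markers, 2 were higher and 0 lower. Of 5 astrocyte markers and 4 tested oligodendrocyte lineage markers, 1 each was higher and 0 lower. The part of these cells in the differences below was not tested. In WT neurons at 0 h, 87 members were higher and 69 lower in MGE than in CTX cultures, or 30.6% and 24.3%. Over all genes tested, 34.7% were higher and 29.5% lower. The count was 99 without replicate 2 of MGE WT at 0 h. Zfp536, which restrains neuronal differentiation, stood at 10.10 and 10.87 in MGE WT neurons, against 6.69 and 7.05 in CTX WT neurons. It was higher in MGE by 3.62 (SE 0.31, limma adjusted p = 5.6e-07), and its levels in the KO cultures were 10.05 and 9.84 in MGE, against 6.56 and 7.07 in CTX. Zfp385a (2.02) and Zfp219 (1.99) followed. Zfp654 stood at 7.54 and 5.92 in MGE WT neurons, against 10.61 and 10.71 in CTX WT neurons, and was lower in MGE by 3.93 on the log2 scale (a change of -3.93, SE 0.37). Zfp280c (-3.37, SE 0.57) and Zfp711 (-2.31, SE 0.29) were also lower in MGE. The gap between origins at 0 h was not fitted in KO neurons for any member. By 6 h Zfp280c had moved by 1.29 in MGE WT and by 0.43 in MGE KO neurons, without a call. At 6 h it was 0.77 higher in MGE KO than in MGE WT neurons, so its gap at rest may also be smaller in KO. The MGE WT arrays of Zfp711 were uneven, at 9.43 and 8.25, against 11.07 and 11.23 in CTX WT. In the KO cultures its gap was smaller, with 9.49 and 9.88 in MGE, against 11.1 and 11.01 in CTX.

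The 6 h response itself differed by origin. In WT neurons the log2 change was higher in MGE than in CTX for 49 members and lower for 7, a share of 19.7% beside 10.9% of all genes tested. In KO neurons it was higher for 27 and lower for 4, a share of 10.9% beside 7.34%. The median difference over the members was 0.61 in WT and 0.37 in KO, against 0.07 in WT and 0.04 in KO over all genes tested. These counts moved with single arrays: in WT the 56 ranged from 13 without replicate 2 of CTX WT at 0 h to 139 without replicate 1 of CTX WT at 6 h, and in KO the 31 ranged from 11 to 52, the highest without replicate 1 of CTX KO at 6 h.

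Zfp710 was among the 7 members whose change was lower in MGE. In CTX WT neurons it stood at 10.94 and 10.79 at 6 h, against 9.76 and 9.78 at 0 h. In MGE WT neurons it stood at 9.57 and 9.57 at 6 h, against 9.90 and 9.75 at 0 h. The 6 h arrays lay above the 0 h arrays in CTX and below them in MGE, without overlap, but the MGE WT change of Zfp710 (-0.26) was not called (limma adjusted p = 0.084). The difference of the responses of Zfp710, MGE minus CTX, was -1.35 (SE 0.15, limma adjusted p = 0.00023) in WT and -1.47 (adjusted p = 8.4e-05) in KO neurons. Zfp868 had differences of -0.92 in WT and -1.23 in KO neurons. Zfp759 had a difference of 2.08 (limma adjusted p = 0.012) in WT neurons.

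**Figure D5:**
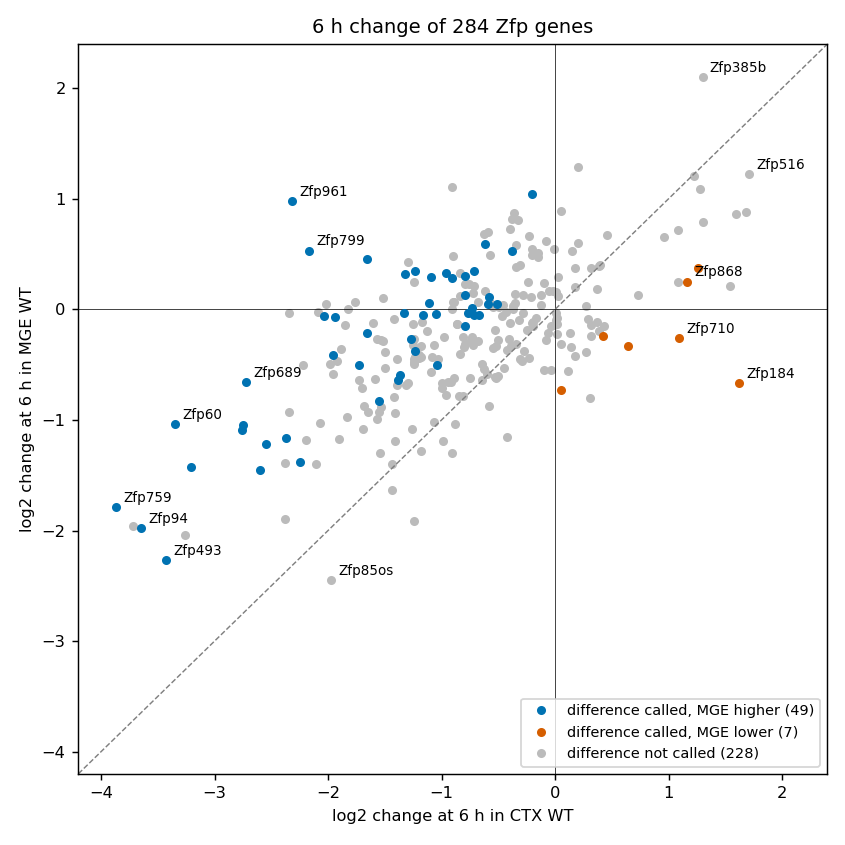
Log2 change at 6 h of the 284 Zfp genes in CTX WT (x axis) and MGE WT neurons (y axis), with 49 genes whose MGE change was higher in blue, 7 whose MGE change was lower in orange and 228 not called in grey. Zfp710 lies among the orange points, with a difference of -1.35.

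The question of the genotype comparison was whether loss of Npas4 moved these genes. No member was called between KO and WT at 0, 1 or 6 h in either culture (limma, adjusted p under 0.05), and over all genes tested 0 (0%) were called in either culture before KCl. Among MGE cultures 3 genes (0.0242%) were called after 1 h and 4 (0.0323%) after 6 h, and among CTX cultures 1 (0.00808%) after 1 h and 6 (0.0485%) after 6 h. An unadjusted p under 0.05 was reached in MGE cultures by 46 members (16.2%) before KCl, 6 (2.11%) after 1 h and 4 (1.41%) after 6 h, beside 21%, 2.55% and 2.94% of all genes tested. In CTX cultures it was reached by 0 members before KCl, 1 (0.352%) after 1 h and 17 (5.99%) after 6 h, beside 0.396%, 0.646% and 3.47%. Without replicate 1 of MGE WT at 0 h, 70 members were called at 0 h in MGE, and without replicate 1 of CTX WT at 6 h, 22 were called at 6 h in CTX.

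The intervals bound the size of a difference. For KO minus WT in CTX neurons at 6 h, the 95% interval lay within 1 log2 unit of 0 for 232 of the 284 members, and the median interval reached 0.5 to each side of the fitted value. In MGE neurons at 6 h the number was 242. The fitted values in CTX neurons at 6 h ran from -0.65 for Zfp608 to 0.93 for Zfp141, and 190 were above 0, with a median of 0.11. Over the 12378 genes tested, 6772 were below 0, with a median of -0.02. The 2 CTX WT arrays at 6 h were uneven, with the median member at -0.49 and -0.96 from the CTX 0 h level. The part of this unevenness in the 190 was not tested. Zfp759 at 6 h differed by 0.11 between KO and WT in CTX neurons, with an interval of -0.59 to 0.82. Zfp493 differed by 0.22, with an interval of -0.23 to 0.67, and Zfp516 by 0.04, with an interval of -0.52 to 0.61. The 6 h response differed between KO and WT for 0 members in both cultures (limma; at an unadjusted p under 0.05, 1 in MGE and 4 in CTX, beside 1.53% and 0.969% of all genes tested). Over all genes tested the adjusted call was made for 0% in MGE and 0.00808% in CTX. Without replicate 1 of MGE WT at 0 h, 7 were called in MGE.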

How the data were processed

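RNA was labelled from 100 ng of total RNA and hybridised to 24 mouse whole-genome Affymetrix arrays, per the labels. The authors deposited 1 table of linear intensity values per probe set, made with RMA per the submitters' processing notes; its version and settings are not given in the sources used here. Array medians ran from 114.9 to 121.1. The number of arrays limits the precision.

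Here the intensities were turned to log2. Of 45101 probe sets, 34958 had 1 gene symbol, 932 several and 9211 none in the platform annotation, and the brightest single-symbol probe set stood for each gene. Tests covered the 12378 genes that exceeded their array's median on 2 or more arrays; they were run with limma 3.58.1 (R 4.3.3) on 12 group means, with empirical Bayes shrinkage and Benjamini-Hochberg adjustment over all of them. Tables were made in Python 3.11.15. The fit was tested on simulated data. Named genes were up to 10 called, non-overlapping falls and rises of largest size per comparison (all where 5 or fewer), the function lists, and the genes at the ends of the level and range scales. Zfp280b, Zfp287, Zfp748, Zfp608, the run ends and the promoters shown for Zfp60, Zfp14 and Zfp189 were chosen after their values were seen. The members and lists were chosen with earlier results of these data known. Finger and KRAB counts from protein sequences were planned and not run.

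Alternatives were the median of a gene's probe sets, no filter on dim genes or a stricter one, cyclic loess, trended robust shrinkage, the arrays of one cell type alone, the replicate number as a block, and leaving out each array. Same-numbered CTX arrays deviated together in 15 of 15 group pairs (correlations of 0.11 to 0.71, median 0.37). Same-numbered MGE arrays did so in 13 of 15 pairs (-0.23 to 0.86, median 0.61). The exceptions were MGE WT at 0 h with MGE WT at 1 h (-0.23) and with MGE KO at 0 h (-0.19). The numbers thus mark arrays that moved together in both cell types, only in part for MGE WT at 0 h. The main fit did not use the replicate number.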

Additional observations from a re-analysis of the deposited data

Results flagged for a closer look

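The 6 h response differed between MGE and CTX neurons by the fitted interaction for 56 members in WT and 31 in KO neurons, and the named members among the 56 follow, each as MGE minus CTX on the log2 scale. Where CTX WT neurons had the lower change, the difference was 3.30 for Zfp961, 2.70 for Zfp799, 2.31 for Zfp60, 2.12 for Zfp11, 2.08 for Zfp759, 2.07 for Zfp689, 1.98 for Zfp229, 1.87 for Zfp760, 1.78 for Zfp113, 1.70 for Zfp647, 1.23 for Zfp207, 1.08 for Zfp451 and 0.62 for Zfp148. Where CTX WT neurons had the higher change, it was -2.29 for Zfp184, -1.35 for Zfp710, -0.97 for Zfp954, -0.92 for Zfp868, -0.89 for Zfp248, -0.78 for Zfp296 and -0.65 for Zfp622. Zfp961 rests on uneven arrays, with 8.61 and 6.52 in MGE WT neurons at 0 h and 7.42 and 5.62 in CTX WT neurons at 6 h. Of 14 alternatives run for each, the call held in all for Zfp229, Zfp622, Zfp710 and Zfp868. It was lost in 1 for Zfp207 and Zfp689, in 2 for Zfp148 and Zfp759, in 3 for Zfp760 and in 4 for Zfp60. It was lost in 5 for Zfp113, Zfp184 and Zfp451, in 6 for Zfp296, Zfp647, Zfp799 and Zfp961, in 7 for Zfp11 and Zfp954, and in 9 for Zfp248. The smallest difference was 1.26 for Zfp11, -1.55 for Zfp184, 1.52 for Zfp961 and 1.72 for Zfp799, and Zfp689 reached -0.15.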

How the results depend on the processing

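With 2 arrays a group, single arrays decided many counts. As each array was left out in turn, the members called at 1 h numbered 0 to 1 in MGE KO, 1 to 46 in MGE WT, 1 to 4 in CTX KO and 0 to 7 in CTX WT, and at 6 h 31 to 40 in MGE KO, 32 to 103 in MGE WT, 110 to 153 in CTX KO and 131 to 194 in CTX WT. Between KO and WT they numbered 0 to 70 in MGE at 0 h, 0 to 22 in CTX at 6 h and 0 in the other 4 comparisons, and for the KO and WT difference of the 6 h response 0 to 7 in MGE and 0 in CTX. Between MGE and CTX they numbered 99 to 160 at 0 h, and for the difference of the 6 h response 11 to 52 in KO and 13 to 139 in WT. The median of probe sets gave 10 at 1 h in MGE WT and 11 in CTX WT, and the arrays of the same cell type alone gave 9 in MGE WT, 1 in CTX KO and 1 in CTX WT; the cause was not tested. The median of probe sets turned the sign of MGE minus CTX at 0 h for Zfp462 (0.19), Zfp703 (0.30) and Zfp91 (0.36), and of the MGE and CTX difference of the 6 h response for Zfp689 (-0.04 in KO and -0.15 in WT). With the replicate block, 183 members were called at 6 h in CTX WT and 76 in the MGE and CTX difference in WT, and the block moved no count by over 1.5 times. Of 840 refits of 176 named values with an array left out, 594 kept their call, 246 lost it and 0 turned. Of 1056 under the other alternatives, 1009 kept it, 42 lost it and 5 turned.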
